A study of Mus musculus with 5 samples.

Results

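Reads of 5 mature miRNAs of the miR-34 and miR-449 family were followed across 5 small RNA libraries of mouse testis cells. The 5 were chosen by name and are mmu-miR-34a, mmu-miR-34b-5p, mmu-miR-34b-3p, mmu-miR-34c and mmu-miR-449a, out of 593 names that had reads in at least 1 library. Below they are written without the mouse prefix. The files also held 3 further products of the family, miR-34c* (the minor strand of the miR-34c hairpin), miR-449b and miR-449c. All libraries came from C57BL/6 testis. Testis cells had been separated on magnetic beads carrying an antibody to Thy1.2, a surface protein of spermatogonial stem cells that thymocytes and T cells also carry. The retained Thy1+ fraction, enriched for stem cells, gave 2 libraries, and the depleted Thy1- fraction gave 2. The fifth library was a germ cell culture grown from Thy1+ cells for about 10 passages. The titles call the Thy1- fraction enriched for somatic cells, whereas its cell type label repeats the stem cell name, and the titles were followed. No library is labelled as meiotic or postmeiotic cells, and neither the age of the mice nor the culture conditions are in the sources used here.

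A miRNA pairs with messenger RNAs mainly through its seed, bases 2 to 8, and lowers their stability and translation. miR-34a is known as a direct transcriptional target of p53 and slows the cell cycle in many tissues. The miR-34b/c and miR-449 loci share its seed, and are known for high levels in meiotic and postmeiotic male germ cells and in multiciliated epithelia. Mice lacking both of these loci are known to be infertile, with defects of spermatogenesis and of motile cilia.

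The mature sequences are shown because the seed groups the members and because a pair of them is nearly identical. They are given 5′ to 3′ with the seed in capitals. Those in U are from RefSeq (GRCm38.p6), where 4 of the 5 members and miR-34c* were matched. That of miR-34c is the most abundant deposited tag, written with T.
miR-34a: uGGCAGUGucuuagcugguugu
miR-449a: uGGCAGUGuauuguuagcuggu
miR-34b-5p: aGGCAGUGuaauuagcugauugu
miR-34c: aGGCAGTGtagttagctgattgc
miR-34b-3p: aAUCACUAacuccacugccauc
miR-34c*: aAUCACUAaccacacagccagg

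Of the 5 members, 4 carry the seed GGCAGUG. The other member, miR-34b-3p, carries AUCACUA, which miR-34c* shares. Compared base by base from the 5′ end, miR-34c and miR-34b-5p were equal at 21 of 23 bases, with substitutions G11A and C23T from miR-34c to miR-34b-5p. Compared in the same way, without gaps, the other pairs that share the seed had fewer equal bases. There were 15 of 22 between miR-34a and miR-449a, 11 of 22 between miR-34a and miR-34c, and 10 of 22 between miR-449a and miR-34c. An inserted base puts later bases out of register, so these counts do not rank the pairs by likeness.

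The members lie at 3 loci in GRCm38. The miR-34a hairpin is at chr4:150068454-150068555 on the plus strand, where no protein-coding gene overlaps it. The miR-34c hairpin, at chr9:51103034-51103110, and the miR-34b hairpin, at chr9:51103562-51103645, are 451 bases apart on the minus strand, and both lie in an intron of Btg4, which is on the opposite strand. The miR-449a hairpin, at chr13:113037534-113037624, lies in an intron of Cdc20b on the same strand, together with miR-449c, whose hairpin is 1442 bases away. The 2 chromosome 9 hairpins, from RefSeq, are shown because each gives a product from either arm. Capitals mark the most abundant tag of each arm.
miR-34c hairpin: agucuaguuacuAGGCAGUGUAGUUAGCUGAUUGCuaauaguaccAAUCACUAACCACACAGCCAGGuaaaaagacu
miR-34b hairpin: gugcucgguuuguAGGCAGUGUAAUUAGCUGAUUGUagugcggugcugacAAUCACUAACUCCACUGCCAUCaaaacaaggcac

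The libraries held 937002 and 947687 miRNA reads (Thy1+), 2548234 and 4909753 (Thy1-) and 5110007 (culture). Levels are read counts per 1000000 miRNA reads of a library (CPM), and replicates are named by the numbers in their titles. Summed markers differed between the fractions. White blood cell miRNAs (5 names, led by miR-142-3p) stood at 14904 and 26541 CPM in Thy1+ against 2017 and 1346 in Thy1- and 937 in the culture, with none of the 5 at 0 in any library. The miR-202 pair, found in gonadal somatic and germ cells, stood at 1138 and 2205 CPM in Thy1+ against 18584 and 3712 in Thy1-, and at 173 in the culture. In these bulk samples, fewer cells of a type and less RNA per cell cannot be told apart.

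miR-34c made up nearly all reads of the family. Its level was 105485 and 23387 CPM in Thy1+ replicates 1 and 2, 48794 and 8498 CPM in Thy1- replicates 1 and 2, and 195532 CPM in the culture. It was the most abundant of all miRNAs in Thy1+ replicate 1 and in the culture, and ranked 11th in Thy1+ replicate 2, 4th in Thy1- replicate 1 and 22nd in Thy1- replicate 2. Of the 5 members' summed reads, miR-34c had 98.6% and 98.0% in Thy1+, 98.0% and 98.2% in Thy1- and 99.5% in the culture. The mean was 64436 ± 58052 CPM in Thy1+ and 28646 ± 28494 CPM in Thy1- (SD, n = 2 each), so the fractions overlapped and the replicates within each fraction differed by more than the means did. The culture library lay above all 4 fresh libraries.

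miR-34b-5p, from the neighbouring hairpin, had 634 and 186 CPM in Thy1+, 375 and 72.5 CPM in Thy1- and 652 CPM in the culture. The culture and Thy1+ replicate 1 were thus about level, and the fractions overlapped (410 ± 317 and 224 ± 214 CPM, SD, n = 2 each). Its opposite arm, miR-34b-3p, had 75.8 and 15.8 CPM in Thy1+, 39.6 and 5.70 CPM in Thy1- and 162 CPM in the culture. Here the culture was the highest library, while the lowest value rested on 28 reads and that of Thy1+ replicate 2 on 15. The miR-34c* strand had 65.1 and 15.8 CPM in Thy1+, 25.5 and 13.6 CPM in Thy1- and 141 CPM in the culture.

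miR-449a, made from the Cdc20b intron, had 699 and 152 CPM in Thy1+, 325 and 10.4 CPM in Thy1- and 39.3 CPM in the culture. Unlike the chromosome 9 members it was low in the culture, which lay below 3 of the 4 fresh libraries and above Thy1- replicate 2, where it had 51 reads. The means were 425 ± 387 CPM in Thy1+ and 168 ± 222 CPM in Thy1- (SD, n = 2 each). Of the other miR-449 products, miR-449b had 2 and 2 reads in Thy1+, 3 and 0 in Thy1- and 4 in the culture. miR-449c had 2 and 0 reads in Thy1+, 0 and 2 in Thy1- and 0 in the culture, and neither was detectable above a few reads at this depth.

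miR-34a, a known p53 target, had 132 and 113 CPM in Thy1+, 269 and 71.5 CPM in Thy1- and 82.0 CPM in the culture. These are a narrow span beside the other members, with the 2 Thy1+ libraries inside the range of the Thy1- libraries and the culture inside it too (123 ± 13.7 CPM in Thy1+ and 170 ± 140 CPM in Thy1-, SD, n = 2 each). For each 1000 reads of miR-34c there were 1.25 and 4.83 reads of miR-34a in Thy1+, 5.52 and 8.41 in Thy1- and 0.419 in the culture. The seed GGCAGUG thus came almost entirely on miR-34c reads in every library.

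**Figure D1:**
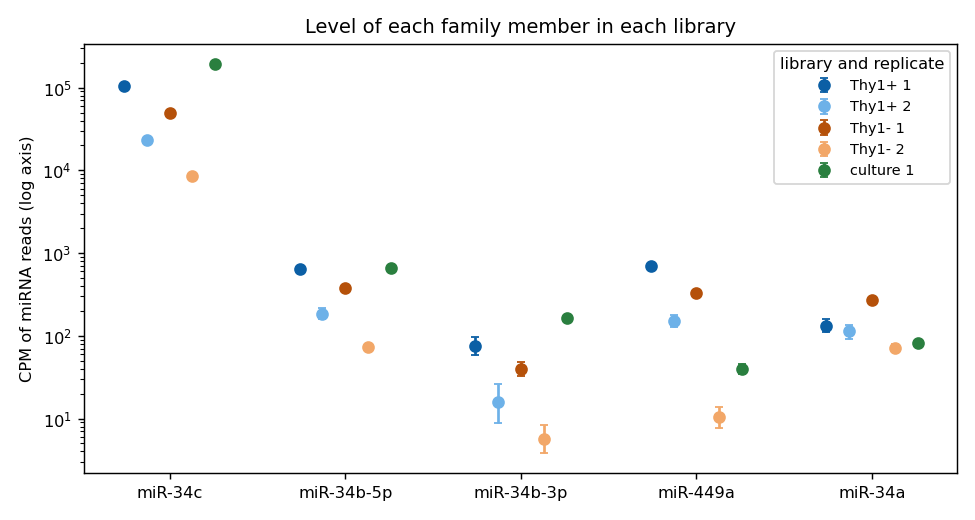
Level of each member in each library, in CPM of miRNA reads on a log axis, with 1 point per library and exact 95% intervals for counting error alone. miR-34c lies between 8498 and 195532 CPM, and the replicate 1 points of miR-34c, miR-34b-5p, miR-34b-3p and miR-449a lie above those of replicate 2 in both fractions.

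The first comparison asks whether the stem cell-enriched fraction differs from the depleted one. None of the 5 members passed the test (edgeR quasi-likelihood, adjusted p under 0.05), where 28.2% of the 425 miRNAs tested did, 20.5% higher in Thy1+ and 7.76% lower. The log2 fold change of Thy1+ over Thy1- was 0.80 ± 0.93 (SE) for miR-34c (adjusted p = 0.545), 0.49 ± 0.87 for miR-34b-5p (adjusted p = 0.701) and 0.65 ± 0.98 for miR-34b-3p (adjusted p = 0.639). For miR-449a it was 1.01 ± 1.29 (adjusted p = 0.584). For miR-34a it was -0.94 ± 0.67 (adjusted p = 0.320), the only negative value. Thus 4 of 5 members had values above 0, with a median of 0.65, against 48.7% of all miRNAs tested and a median of -0.07. miR-34c, miR-34b-5p and miR-34b-3p come from neighbouring hairpins, so these members are not separate observations. At an unadjusted p under 0.05 the count was also 0 of 5, and DESeq2 and limma-voom called 0 of 5. Standard errors this wide do not show that the fractions were alike. The values turned on single libraries. Without Thy1- replicate 1, the 4 members other than miR-34a passed the test as higher in Thy1+, with a log2 fold change of 2.44 for miR-34c and 4.86 for miR-449a. Without Thy1+ replicate 1, the same 4 turned negative (-0.92 for miR-34c, -1.12 for miR-34b-3p, -0.90 for miR-34b-5p and -0.73 for miR-449a) and 0 of 5 passed, adjusted or unadjusted. Without Thy1- replicate 2, miR-34b-5p (-0.24) and miR-34b-3p (-0.16) turned negative and miR-34c came to 0.04. In these fits the lone library of a fraction is assumed to vary like the other fraction.

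**Figure D2:**
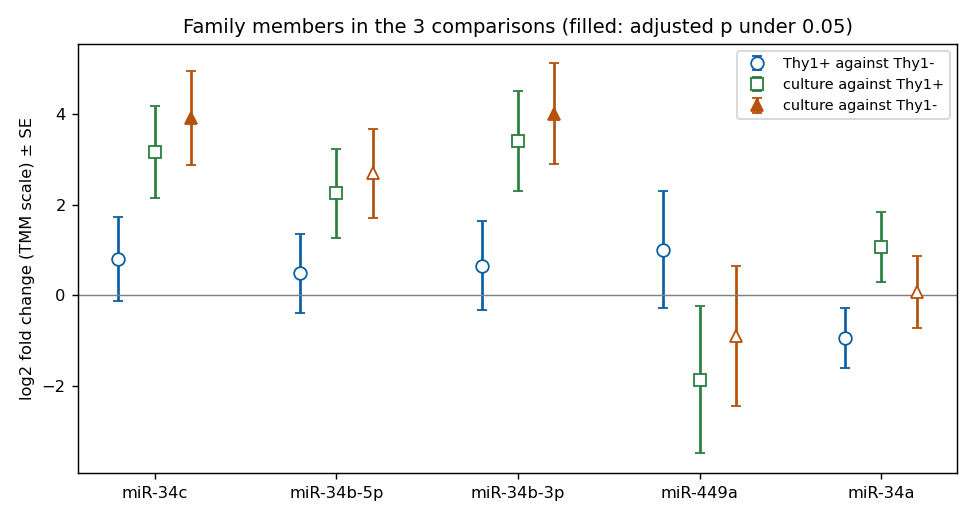
Log2 fold change ± SE of each member in the 3 comparisons (edgeR, TMM scale), with filled symbols for an adjusted p under 0.05. The 2 filled symbols are miR-34c (3.92) and miR-34b-3p (4.01) in culture against Thy1-, and miR-449a lies below 0 in both culture comparisons.

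The culture was then set against the Thy1+ and the Thy1- fraction, with all 5 libraries fitted together. It is a single library, so its spread is taken from the fresh groups, and the 2 comparisons share the culture. Against Thy1+, the cells it was grown from, the chromosome 9 products had the largest values of the family. The log2 fold change was 3.17 ± 1.02 for miR-34c (adjusted p = 0.0531), 3.40 ± 1.10 for miR-34b-3p (adjusted p = 0.0550) and 2.25 ± 0.97 for miR-34b-5p (adjusted p = 0.121). It was 1.06 ± 0.77 for miR-34a (adjusted p = 0.360) and -1.87 ± 1.62 for miR-449a (adjusted p = 0.454). Thus 0 of 5 members passed, where 22.3% of 470 miRNAs did (8.94% higher, 13.4% lower). At an unadjusted p under 0.05, 3 of 5 passed, and limma-voom called 0 of 5. The minor strand miR-34c* passed the test, at 3.38 ± 0.86 (adjusted p = 0.0281). DESeq2 called miR-34c (adjusted p = 0.00821) and miR-34b-3p (adjusted p = 0.00782) higher in the culture, and so did edgeR on tags without mismatch. Without Thy1- replicate 2 these 2 members also passed (adjusted p = 0.0131 and 0.0195), whereas 0 of 5 did without Thy1+ replicate 1 (3 of 5 at an unadjusted p under 0.05) or without Thy1+ replicate 2 (0 of 5).

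Against Thy1-, miR-34c rose in the culture by a log2 fold change of 3.92 ± 1.03 (adjusted p = 0.0208) and miR-34b-3p by 4.01 ± 1.11 (adjusted p = 0.0244). These were 2 of 5 members, where 34.9% of 470 miRNAs passed (18.1% higher, 16.8% lower). miR-34b-5p, at 2.69 ± 0.98, did not pass (adjusted p = 0.0617, against 0.0196 by DESeq2 and 0.0467 by limma-voom), nor did miR-34a at 0.08 ± 0.79 (adjusted p = 0.948) or miR-449a at -0.90 ± 1.54 (adjusted p = 0.677). miR-34c* rose by 3.93 ± 0.86 (adjusted p = 0.0102). In both culture comparisons 4 of 5 members were above 0. The median was 2.25 against Thy1+ and 2.69 against Thy1-, beside -0.09 and -0.15 over all miRNAs tested. Both medians are the values of miR-34b-5p, which were lower with tied tags left out, as given below. miR-34c, miR-34b-5p and miR-34b-3p come from neighbouring hairpins, so the members are not separate observations. Neither call held in every fit that left out a fresh library. miR-34c kept an adjusted p under 0.05 only without Thy1- replicate 2 (0.0327), and miR-34b-3p only without Thy1+ replicate 1 (0.0450). Neither passed without Thy1+ replicate 2 (0.110 and 0.0792) or without Thy1- replicate 1 (both 0.0715). Marker miRNAs moved in the same comparisons. Of 5 mesenchymal miRNAs (miR-143, miR-145, miR-199a-3p, miR-199a-5p and miR-214), 4 rose in the culture against Thy1+ and 2 against Thy1-, and their summed level was 23006 and 29906 CPM in Thy1+, 39633 and 22762 CPM in Thy1- and 52882 CPM in the culture. Of 10 miRNAs of the X-linked testis cluster, 8 rose in the culture against Thy1- and 0 against Thy1+, and their summed level was 114390 and 122287 CPM in Thy1+, 23379 and 13489 CPM in Thy1- and 54696 CPM in the culture. The miR-183 cluster, with 3 of 3 higher against Thy1- and 0 of 3 against Thy1+, stood at 47058 and 47808 CPM in Thy1+, 3897 and 1867 CPM in Thy1- and 22248 CPM in the culture. All 3 red blood cell miRNAs fell against Thy1-, from a summed 1344 and 1475 CPM to 12.5 CPM in the culture, and 1 of 3 fell against Thy1+ (252 and 179 CPM). None of these markers was at 0 in any library. Other lists differed too. The summed level of 6 pluripotency miRNAs was 6303 and 13371 CPM in Thy1+, 1029 and 602 CPM in Thy1- and 737 CPM in the culture. The muscle list was mixed, as miR-206 was highest in the culture (1062 CPM) and miR-1 was lowest there (93.9 CPM). White blood cell and miR-202 levels are given above. The part of all these markers in the result was not tested.

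The values above are relative to the bulk of miRNAs. Scaling to total reads instead of TMM shifted the median log2 fold change over all miRNAs. The shift was 0.58 between the fresh fractions. With the culture it was -1.64 (over Thy1+) and -1.04 (over Thy1-). Under it 90.9%, 5.20% and 21.9% of all calls were higher, against 72.5%, 40.0% and 51.8% with TMM. miR-34c and miR-34b-3p stayed above 0 in the culture on that scale but did not pass (2.77, adjusted p = 0.0655, and 2.86, adjusted p = 0.0757, against Thy1-). Against Thy1+ on that scale, no member had an unadjusted p under 0.05 (edgeR), where 3 had with TMM. With total reads miR-34a turned negative, at -0.58 against Thy1+ and -1.05 against Thy1-, and miR-449a stayed negative at -3.43 and -2.09.

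The chromosome 9 members and miR-449a were higher in replicate 1 than in replicate 2 of both fractions. The ratio of replicate 1 to replicate 2 (on CPM + 1) was 4.51-fold in Thy1+ and 5.74-fold in Thy1- for miR-34c. It was 3.40-fold and 5.11-fold for miR-34b-5p, and 4.56-fold and 6.06-fold for miR-34b-3p. For miR-449a it was 4.58-fold and 28.6-fold. These ratios use CPM without TMM scaling. Over the 425 miRNAs tested, the median log2 ratio was -0.20 in Thy1+ and 0.22 in Thy1-. In both fractions, replicate 1 was at least 2-fold higher for 4 of 5 members, against 1.65% (7 of 425) of the miRNAs tested. The other 3 of the 7, named after their values were seen, were miR-375 (2.68-fold and 29.9-fold), miR-466k (2.02-fold and 2.62-fold) and miR-877 (2.40-fold and 2.07-fold). miR-34a was not among them, at 1.17-fold in Thy1+ and 3.73-fold in Thy1-. Nor was miR-34c*, from the same hairpin as miR-34c, at 3.93-fold in Thy1+ and 1.81-fold in Thy1-. The chromosome 9 members come from neighbouring hairpins, and miR-34b-5p shares tied reads with miR-34c, so the members are not separate observations. The labels do not say whether libraries that share a number also share animals or a day, and over all 425 miRNAs the deviations of same-numbered libraries were not alike (Pearson's r = -0.06 across miRNAs, which are not independent). The summed miR-202 pair was higher in replicate 1 of Thy1- and lower in replicate 1 of Thy1+. So were the summed white blood cell miRNAs, with the values given above. Exceptions among the single names were miR-202-3p (257 over 235 CPM) and miR-150 (61.9 over 59.1 CPM), higher in replicate 1 of Thy1+. Another was miR-223, lower in replicate 1 of Thy1- (5.89 against 9.57 CPM). The neuronal marker miR-124 was higher in replicate 1 of both, at 14.9 CPM over 4.22 in Thy1+, then 3.53 over 0.611 in Thy1-. These are few reads, as 0.611 CPM is 3 reads there, and miR-124 was too low to be among the 425 tested. Markers with more reads, among them miR-1, miR-96 and miR-182, were also higher in replicate 1 of both, and others were not. The part of these markers in the result was not tested. With 2 libraries in a fraction, this pattern has no replicate of its own and was given no test.

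**Figure D3:**
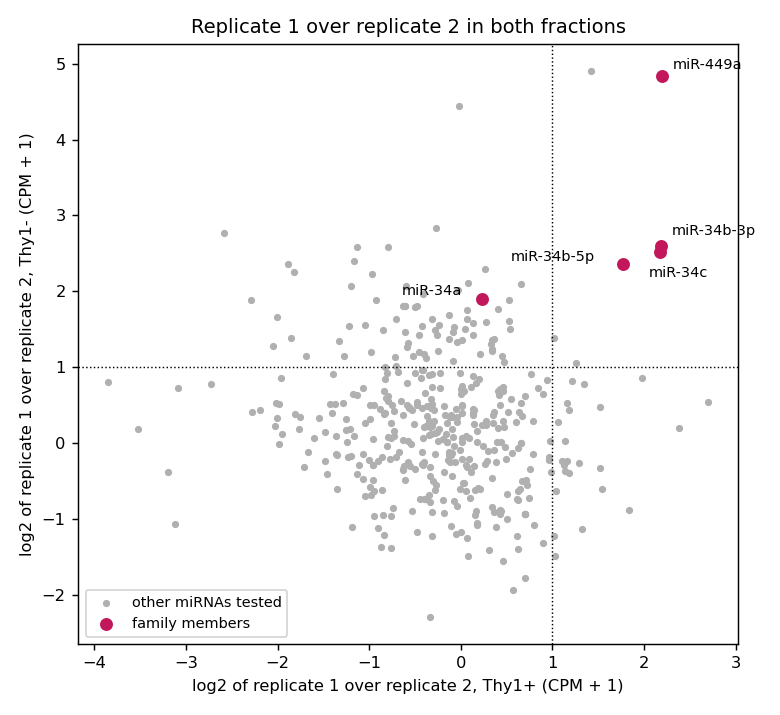
Log2 ratio of replicate 1 to replicate 2 in Thy1+ (x axis) and in Thy1- (y axis) for 425 miRNAs, with the family members in magenta and dotted lines at 2-fold. miR-34c, miR-34b-5p, miR-34b-3p and miR-449a lie among the 7 points in the upper right quadrant, and miR-34a (1.17-fold in Thy1+) lies to its left.

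Ratios between products were close in some libraries and far apart in others. Against miR-449a, miR-34c reads were 151-fold and 154-fold in Thy1+ and 150-fold in Thy1- replicate 1, a near-constant ratio across libraries whose miR-34c level spanned 23387 to 105485 CPM. In Thy1- replicate 2 the ratio was 818, and in the culture 4971. The ratio of miR-34c to its minor strand miR-34c* was 1620 and 1478 in Thy1+, 1913 and 623 in Thy1- and 1388 in the culture, so the major strand dominated throughout and Thy1- replicate 2 was the lowest. The ratio of miR-34b-3p to miR-34c*, the 3′ arm products of the 2 hairpins, was 1.16 and 1.0 in Thy1+, 1.55 and 0.418 in Thy1- and 1.15 in the culture. The Thy1- libraries thus lay on opposite sides of an equal share. Against miR-34a, miR-34c reads ranged from 119-fold in Thy1- replicate 2 to 2385-fold in the culture.

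The 2 near-identical members need care, because a tag with 1 mismatch can match both equally well. The 4 tags below are read from the deposited files, with bases 11 and 23, where miR-34c and miR-34b-5p differ, in capitals. A tied tag has the base of one miRNA at position 11 and of the other at position 23, and its reads were split equally between them.
miR-34c full length: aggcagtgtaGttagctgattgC
miR-34b-5p full length: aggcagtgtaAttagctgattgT
tied tag ending in T: aggcagtgtaGttagctgattgT
tied tag ending in C: aggcagtgtaAttagctgattgC

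The full-length miR-34b-5p tag had 364 and 100 reads in Thy1+, 589 and 161 in Thy1- and 1024 in the culture. The tied tag ending in T had 241 and 88 reads in Thy1+, 320 and 258 in Thy1- and 3330 in the culture, where it outnumbered the full-length miR-34b-5p tag. Set against the full-length miR-34c tag it was between 0.260% and 0.669% in every library. The tag of miR-34c with A as its last base was between 0.229% and 0.651%, and that with G was lower, between 0.0580% and 0.122%. The tied tag ending in C was rarer, with 34 and 6 reads in Thy1+, 31 and 4 in Thy1- and 235 in the culture. Tied reads made up 25.1% and 27.6% of the reads credited to miR-34b-5p in Thy1+, 21.5% and 39.4% in Thy1- and 57.7% in the culture, but at most 0.338% of those credited to miR-34c.

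Tied tags were next left out, with CPM taken over the reads that remained. On that count miR-34b-5p had 502 and 145 CPM in Thy1+, 303 and 45.6 CPM in Thy1- and 289 CPM in the culture. The culture value was then below those of Thy1+ replicate 1 and Thy1- replicate 1, whereas with an equal split it was the highest of the 5. The log2 fold change of culture over Thy1+ for miR-34b-5p was 1.51 (adjusted p = 0.338) in place of 2.25, and over Thy1- it was 1.99 (adjusted p = 0.187) in place of 2.69. Tags without mismatch gave 1.35 (adjusted p = 0.350) and 1.89 (adjusted p = 0.150), and dividing the tied reads in proportion to untied reads, a rule added after the tied tags were seen, gave 1.52 (adjusted p = 0.324) and 1.94 (adjusted p = 0.180). The value for miR-34c moved little, from 3.17 to 3.25 against Thy1+ with tied tags left out.

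**Figure D4:**
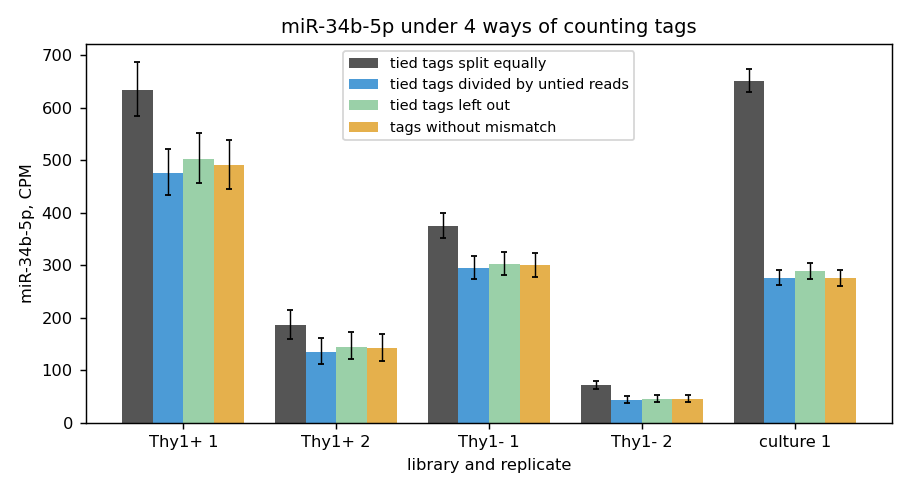
miR-34b-5p in CPM in each library under 4 ways of counting tags, with exact 95% intervals for counting error alone. The culture bar falls from 652 CPM with tied tags split equally to 289 CPM with them left out, the largest drop of the 5 libraries. Bars that leave out tied or mismatched tags are relative to the reads kept.

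With tied tags split equally, the ratio of miR-34b-5p to miR-34b-3p was 8.37 and 11.7 in Thy1+, 9.46 and 12.7 in Thy1- and 4.02 in the culture. That of miR-34c to miR-34b-5p was 166 and 126 in Thy1+, 130.2 and 117 in Thy1- and 300.1 in the culture. On tags without mismatch, which leave out the tied full-length tags, the arm ratio of the miR-34b hairpin was 6.40 (95% interval 4.94 to 8.41) and 8.71 (4.999 to 16.4) in Thy1+, and 7.67 (6.17 to 9.64) and 8.96 (5.81 to 14.4) in Thy1-. It was 1.78 (1.63 to 1.95) in the culture. The intervals of the 4 fresh libraries overlapped, and the culture lay below all of them. The ratio of miR-34c to miR-34b-5p on the same tags was 221 and 174 in Thy1+, 165 and 194 in Thy1- and 719 in the culture. In the culture, miR-34b-5p was therefore low against both miR-34c and its own opposite arm. These intervals are exact binomial (Clopper-Pearson) and cover counting error in 1 library each. With 1 culture library the difference has no replicate check.

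**Figure D5:**
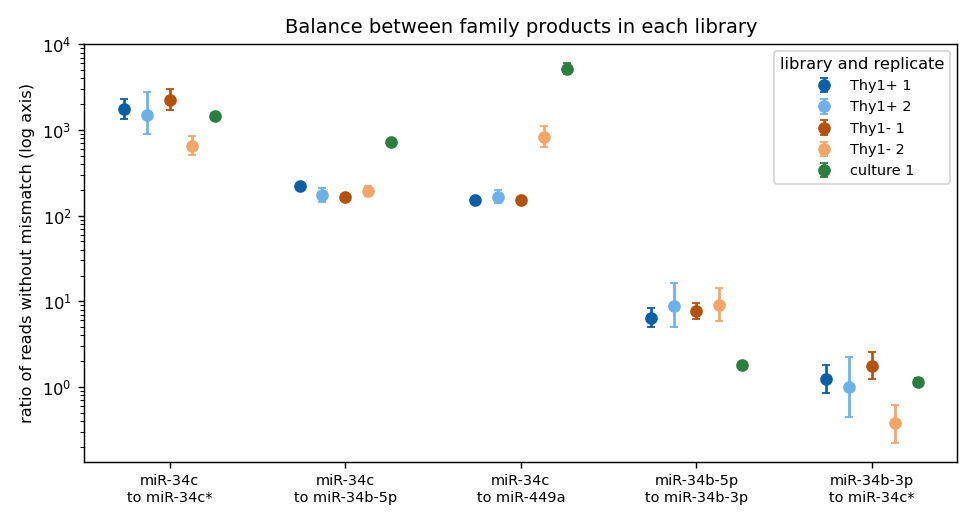
Ratios between family products in each library from tags without mismatch, on a log axis, with exact 95% intervals for counting error alone. The miR-34b-5p to miR-34b-3p ratio is between 6.40 and 8.96 in the 4 fresh libraries and 1.78 in the culture, and the miR-34c to miR-449a ratio is near 150 in 3 fresh libraries only.

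The tags also show where each mature end lies, and the start sets the seed. miR-34c began at base 1 of the listed mature miRNA in 99.6% to 99.8% of its reads, and miR-34b-5p in 97.8% to 100%. miR-34a did so in 95.2% to 97.7%. For miR-34b-3p it was 81.7% to 96.4%, and for miR-449a 78.4% to 94.1%. Of the miR-34b-3p reads, 18.3% and 13.3% began at base 2 in Thy1+, 12.9% and 3.57% in Thy1- and 14.7% in the culture, which moves the seed by 1 base. The intervals overlapped (0.0904% to 18.3% for the lowest, from 28 reads, and 12.4% to 17.3% for the culture). miR-34c* had 9.84% and 0.0% of reads beginning at base 2 in Thy1+, 4.62% and 13.4% in Thy1- and 4.44% in the culture. The files list no tag that begins before base 1 or ends past the last base, so longer forms were not analysed here.

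miR-449a had a pair of common 3′ ends. The tags are shown because each was a large share of its reads.
miR-449a full length: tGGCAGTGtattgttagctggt
miR-449a 1 base shorter: tGGCAGTGtattgttagctgg

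The full-length tag was 44.7% and 35.4% of miR-449a reads in Thy1+, 41.3% and 43.1% in Thy1- and 44.8% in the culture. The shorter tag was 35.1% and 38.9% in Thy1+, 37.9% and 29.4% in Thy1- and 30.8% in the culture. The full-length tag of miR-34c held 89.6% to 94.0% of its reads, and that of miR-34a 69.2% to 76.1%. Reads that began at base 5 or later made up 6.41% and 6.94% of miR-449a in Thy1+, 4.95% and 19.6% in Thy1- and 10.4% in the culture, the highest share among the 5 members in every library. The 19.6% rested on 10 of 51 reads (interval 9.82% to 33.1%).

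Other miRNAs linked to p53 were taken as a fixed list of 7 (miR-192, miR-194, miR-215, miR-107, miR-143, miR-145 and miR-16). Between Thy1+ and Thy1-, 1 of the 6 tested passed the test, beside 28.2% of all miRNAs. miR-107 fell in Thy1+ by 1.83 on the log2 scale (adjusted p = 0.0336). The median of the 6 was -0.99, beside -0.94 for miR-34a and -0.07 for all miRNAs. In the culture, miR-143 and miR-215 rose, 2 of 7 in either comparison and none lower, beside 22.3% and 34.9% of all miRNAs called. miR-143, an abundant miRNA of smooth muscle and other mesenchymal cells, had 17369 and 18967 CPM in Thy1+, 29956 and 11618 CPM in Thy1- and 37950 CPM in the culture (2.72, adjusted p = 0.0185 against Thy1+, and 1.98, adjusted p = 0.0320 against Thy1-). miR-215 was low, at 4.27 and 2.11 CPM in Thy1+, 3.14 and 3.87 CPM in Thy1- and 17.6 CPM in the culture (4.08, adjusted p = 0.0106, and 3.32, adjusted p = 0.00835). The median of the 7 was 0.95 against Thy1+ and 0.46 against Thy1-, beside 1.06 and 0.08 for miR-34a.

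Among 232 other miRNAs with a mean of at least 100 CPM, likeness of pattern was measured as the root mean square difference of log2(CPM + 1), each miRNA centred on its mean over the 5 libraries. The nearest to miR-34c was miR-34b-5p, at 0.50, which shares tied reads with it, followed by miR-146b (0.85), miR-24 (0.99), miR-23a (1.03) and miR-21 (1.10). miR-34a came 45th of 232 (1.60) and miR-449a 107th (1.98). The remaining member, miR-34b-3p, was below the 100 CPM cut and was not ranked. The nearest to miR-34a were miR-145 (0.31), miR-872* (0.31), miR-30c-2* (0.43), miR-425 (0.45) and miR-27b (0.46). miR-145 is on both the p53-linked and the mesenchymal list, and no other name of either list was among these 5. miR-34c was 177th from miR-34a. These distances describe 5 libraries and carry no test.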

How the data were processed

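The deposited counts are raw read counts of distinct sequence tags without normalization, made by the authors and placed, per the file names, on the mature mouse miRNAs of miRBase 12.0 with up to 2 mismatches. The submitters' processing notes name DESeq, with no version or role, and the trimming of adapters, the aligner and the build they used were not given in the sources used here. The files hold only reads placed on a miRNA, so totals are miRNA reads and not sequencing depth. Each tag went to its placement with the fewest mismatches, a tie was shared equally among its names, and the totals were then rounded. CPM is relative to the library's miRNA reads, so a very abundant miRNA lowers the CPM of the others. Where tied or mismatched tags were left out, CPM was relative to the reads kept. All members were 22 or 23 bases long, and how efficiently each sequence enters a library was not measured.

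The titles gave each library's group and replicate number. All miRNAs were tested with edgeR 4.0.16 (R 4.3.3), using the quasi-likelihood test, TMM scaling and filterByExpr, two-sided, with Benjamini-Hochberg adjustment over all miRNAs tested and a threshold of 0.05. All 5 members passed the filter on low counts. Thy1+ and Thy1- were compared on the 4 fresh libraries, and the culture was compared on all 5. Code for the fits was tested on simulated data. Alternatives used total or RLE scaling, no filter, DESeq2 1.42.0, limma-voom (limma 3.58.1), other tag rules, a replicate block and leaving out each fresh library. Whether replicates are from different animals is not in the labels, and the p-values therefore measure only the spread between these samples. Reads carry no molecular identifiers, so 95% intervals (Clopper-Pearson) cover counting error only. Named miRNAs were the members, other products of the family, a list linked to p53, the 5 most alike in pattern to miR-34c and to miR-34a, and the commonest tags of each member. Marker miRNAs of other cell types are named beside results, and 3 miRNAs of the replicate pattern were named after their values were seen. Members and lists were chosen with earlier results of these data known.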

Additional observations from a re-analysis of the deposited data

How the results depend on the processing

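For Thy1+ against Thy1-, 0 of 5 members passed the test under every alternative that kept all 4 fresh libraries. Leaving out 1 fresh library gave 0 to 4 members, with log2 fold changes of -1.54 to 0.25 for miR-34a, -0.90 to 2.004 for miR-34b-5p, -1.12 to 2.50 for miR-34b-3p, -0.92 to 2.44 for miR-34c and -0.73 to 4.86 for miR-449a. For culture against Thy1+, where 0 of 5 passed, the count was 3 with no filter on low counts, 2 with DESeq2, 2 on tags without mismatch, 1 with ties divided by untied reads (chosen after seeing the data) and 0 to 2 when 1 fresh library was left out. For culture against Thy1-, where 2 of 5 passed, it was 3 with no filter, DESeq2 and limma-voom (miR-34b-5p added), 0 with total counts scaling and 0 to 1 when 1 fresh library was left out. miR-34a turned negative with total counts scaling in both culture comparisons (-0.58 and -1.05), and against Thy1- it ranged from -0.52 to 0.90 when 1 fresh library was left out. miR-449a in culture against Thy1- turned positive with limma-voom (0.53) and ranged from -1.85 to 2.62 when 1 fresh library was left out. Apart from fewer samples in the fits that leave out a library, the cause was not tested.

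With the replicate number as a block, 0, 3 and 2 members passed in the 3 comparisons, the 3 being miR-34c, miR-34b-3p and, lower in the culture, miR-449a (-3.26, adjusted p = 0.0184), and miR-34a against Thy1- came to -0.27. In that fit the culture, numbered 1 in its title, was placed with the replicate 1 libraries. It was thus set against the fitted replicate 1 level of each fraction. miR-449a was higher there than in replicate 2 (699 against 152 CPM in Thy1+, and 325 against 10.4 CPM in Thy1-). The number was not shown to pair the libraries (r = -0.06), nor the culture to belong with replicate 1. In the culture, the members' summed level of 196468 CPM became 198728 CPM on tags without mismatch and 205345 CPM with tied tags left out. Under those rules CPM was relative to the reads kept. The summed reads themselves fell, from 1003951 to 964166 on tags without mismatch and to 1000107 with tied tags left out. On tags without mismatch, the mean ratio of miR-34b-5p to miR-34b-3p was 7.56 in Thy1+, 8.32 in Thy1- and 1.78 in the culture, in place of 10.05, 11.1 and 4.02. That of miR-34c to miR-34b-5p was 197 in Thy1+, 179.5 in Thy1- and 719 in the culture, in place of 146, 124 and 300.1. On tags of at least 20 bases these ratios, and that of miR-34c to miR-34c*, moved by less than the replicate SD or, in the culture, the counting interval. The ratio of miR-34c to miR-449a rose there from 151 and 154 to 169 and 170 in Thy1+. Precision was limited by 2 libraries in each fresh group, by the single culture library, and by counts of 15 to 101 reads for miR-34b-3p in the fresh libraries.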
